A study of Astyanax mexicanus with 14 samples.

Results

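A set of 31 genes among the 19076 in the count table rose strongly after UV-B light in larvae of both populations of the Mexican tetra (Astyanax mexicanus), surface fish and Pachón cavefish. The genes were chosen by their measured values. A gene belonged to the set when its mean log2 CPM (the log2 of its count scaled to the library total) was at least 1.5 higher in UV-B than in control libraries of each population. It also had to average 50 counts or more over the libraries and stay under a mean of 1000 CPM in controls, and its control levels in the populations had to differ by under 2 on the log2 scale. Those level conditions alone were met by 12055 genes. CPM, counts per M (mega) of library total after TMM scaling, were not divided by transcript length, so levels are compared for the same gene between libraries. Levels of different genes are not read as transcript numbers, and sums over a gene list weigh each gene by its counts.

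Each of the 14 libraries was made from whole larvae, 4 to a pool, at 6 days post-fertilization. Groups were surface fish under white light (surface control, n = 4), surface fish given 60 s of UV-B (surface UV-B, n = 4), Pachón cavefish under white light (cave control, n = 3) and Pachón cavefish given 60 s of UV-B (cave UV-B, n = 3). All larvae were collected 90 min after treatment. Libraries held 7.42 to 15.26 M counts. Whether pools came from separate clutches was not stated, so errors describe the spread between these libraries, which may be technical. In RNA of whole larvae, fewer cells of a type and less RNA per cell cannot be told apart.

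Of the 31 genes, 21 carried a name in the gene tables that accompany the study. By symbol, 16 of these matched the RefSeq annotation of another assembly (AstMex3_surface), in which no pair of them were neighbours. Several of the named genes belong to the immediate-early response, the first wave of transcription after a stress or a growth signal, which existing proteins start without new protein synthesis. Its best known products are the AP-1 factors, dimers of FOS and JUN family proteins that bind DNA through a basic leucine zipper (bZIP) and switch on later genes. UV light is a classical trigger of AP-1 through stress kinases, in parallel with the p53 pathway that answers to DNA damage. Other named genes encode a chaperone, lipid droplet proteins, enzymes that build sugar chains, and secreted or membrane proteins.

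The response of a gene is given below as mean log2 CPM after UV-B minus that of controls, ± its standard error (SE) from the replicates. Over the 31 genes the surface response had a median of 2.17 and ran from 1.50 to 3.89, and the cave response had a median of 2.63 and ran from 1.84 to 5.59. Over the 12055 genes that met the level conditions the corresponding medians were 0.01 and 0.00. TMM scaling holds such medians over many genes near 0, so they are no measured contrast. The TMM factors were lower in UV-B than in control libraries of each population, so the scaling raised both responses. As ratios of mean CPM, the genes rose by a median of 4.43-fold in surface fish and 6.14-fold in cavefish. The values of UV-B and control libraries did not overlap for 30 genes in surface fish and for all 31 in cavefish, where all UV-B libraries lay above all controls for 12.6% and 20.2% of all genes tested. The exception was an unnamed gene (ENSAMXG00000004992), whose surface UV-B replicate 2 lay below surface control replicate 2. All 31 genes passed the edgeR quasi-likelihood test (Benjamini-Hochberg adjusted p under 0.05) as higher in both populations, where 13.4% of all genes tested were called higher in surface fish and 12.6% in cavefish. As the same libraries chose the genes, those calls are a description only.

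**Figure D1:**
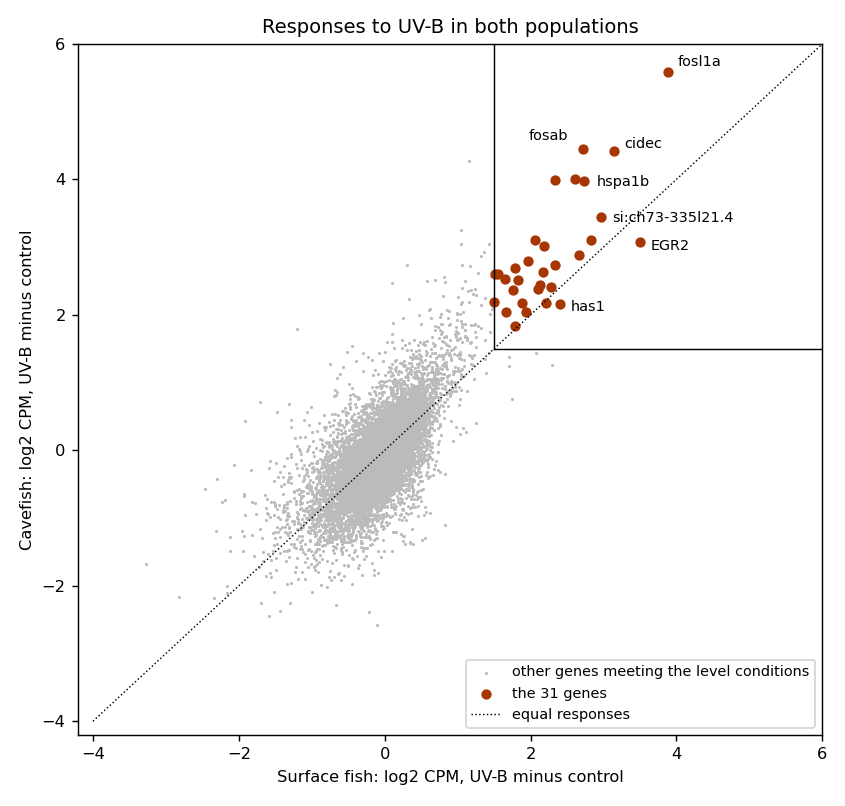
Response to UV-B in surface fish (x axis) and cavefish (y axis), each as log2 CPM after UV-B minus control, for the 12055 genes that met the level conditions. The 31 chosen genes lie in the upper right box, and 28 of them lie above the dotted line of equal responses.

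The condition on surface fish was the harder to meet. Under the level conditions 36 genes reached 1.5 in surface fish and 158 did in cavefish, so the 31 genes were 86.1% of the former and 19.6% of the latter. The 5 that reached it in surface fish but stayed below it in cavefish, singled out after their values were seen, were gcnt3 (2.29 in surface fish and 1.26 in cavefish), slc13a1 (2.07 and 1.43), cdkn1a (1.70 and 1.38), sb:cb1058 (1.70 and 1.24) and a gene without a name. Each population's list was also set against the response of the other population, which it did not use, although the conditions on counts and control levels used libraries of both. Of 37 genes chosen on the surface response alone, with no condition on the difference between controls, 35 (94.6% of those tested) were called higher in cavefish and 0 lower (edgeR), with a median cave response of 2.54. Of 169 genes chosen on the cave response alone, 168 were tested in surface fish and 140 (83.3%) were called higher there and 1 (tnfrsf9a, a TNF receptor family gene) lower, with a median surface response of 1.02. The shares over all genes are the 12.6% and 13.4% given above. With those conditions taken from the choosing population alone, a choice made after seeing the data, 34 of 35 genes of the surface list (97.1%) were called higher in cavefish, and 135 of 162 tested genes of the cave list (83.3%) in surface fish.

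**Figure D2:**
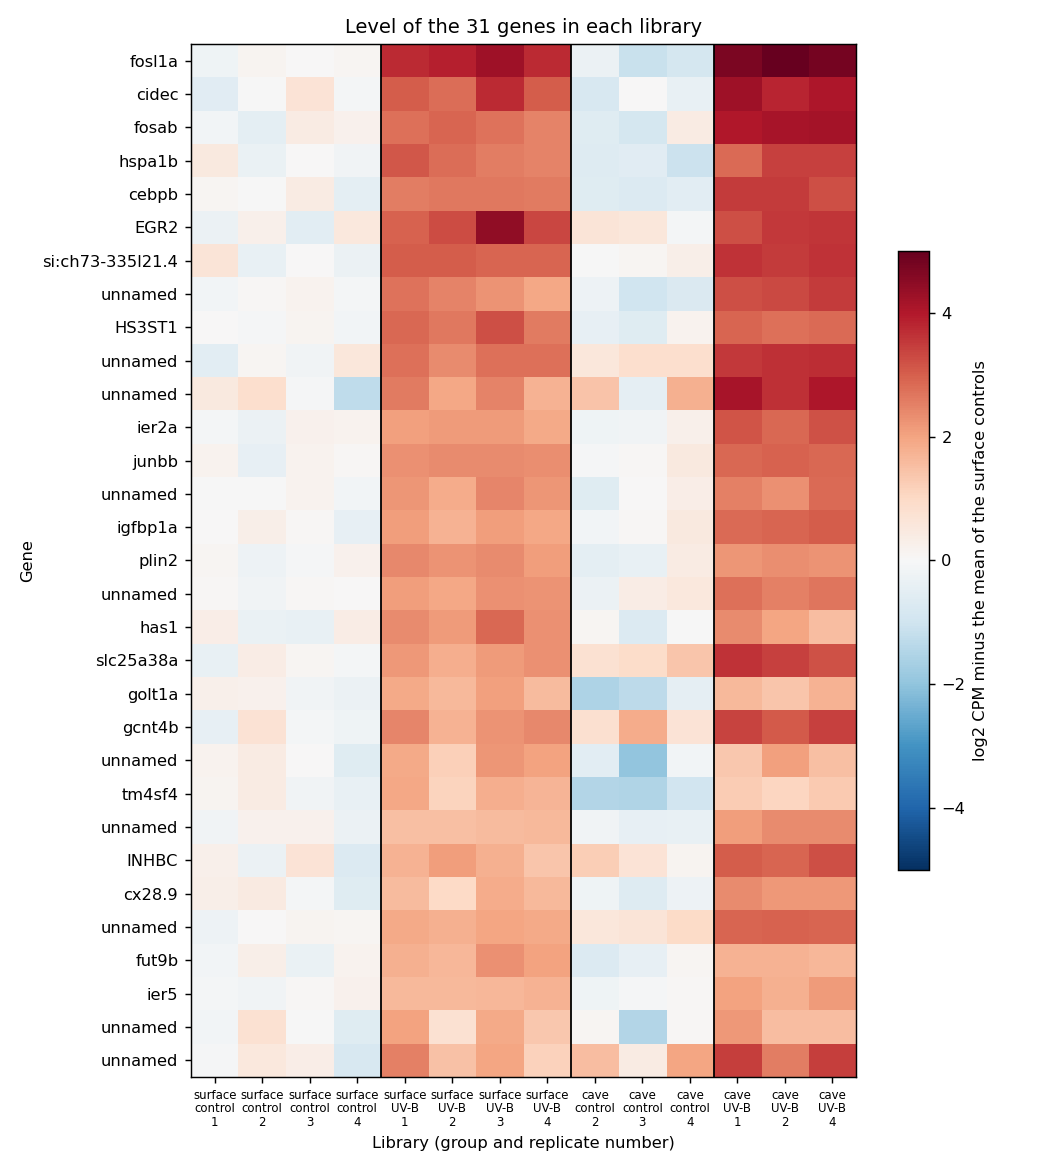
Log2 CPM of the 31 genes (rows, ordered by the mean of both responses) in the 14 libraries (columns), each minus the mean of the surface controls of that gene. Red is above and blue below that mean, and all UV-B columns are red while control columns are pale or blue for most genes, with darker red for several genes in cave UV-B libraries.

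Of the AP-1 genes, fosl1a had the largest response of the set in both populations. It encodes the FOS family member Fra-1. Its level in surface controls was 0.997, 1.31, 1.196 and 1.29 CPM, and after UV-B it was 18.1, 20.5, 26.05 and 18.2 CPM. In cavefish the control libraries had 0.938, 0.449 and 0.5598 CPM and the UV-B libraries 36.05, 44.6 and 38.4 CPM. Every cave UV-B library was above every surface UV-B library. Cave controls lay below surface controls by a narrow margin, with 9 reads each in cave control replicate 2 and surface control replicate 1, and edgeR did not call that difference (adjusted p = 0.152). The response was 3.89 ± 0.14 in surface fish and 5.59 ± 0.26 in cavefish, or 17.3-fold and 61.2-fold as ratios of mean CPM. The cave controls held only 9, 4 and 5 reads of this gene, so the size of the cave ratio rests on few counts.

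fosab encodes a c-Fos protein. Surface controls held 11.6, 9.205, 17.3 and 14.9 CPM and surface UV-B libraries 88.9, 97.7, 85.95 and 73.2 CPM. Cave controls held 8.33, 6.96 and 17.2 CPM and cave UV-B libraries 210.3, 226 and 232 CPM. Controls of the populations overlapped, while the UV-B libraries did not, with all cave values higher. The response was 2.72 ± 0.22 in surface fish and 4.45 ± 0.40 in cavefish.

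junbb encodes a JunB protein, a partner of the FOS proteins. Its levels were 57.3, 38.2, 58.2 and 52.4 CPM in surface controls and 251, 264, 259 and 256 CPM after UV-B. In cavefish they were 48.4, 53.3 and 71.7 CPM in controls and 368, 398 and 375 CPM after UV-B. Replicates after UV-B lay close together in both populations, with cave libraries again above all surface libraries. The response was 2.34 ± 0.14 in surface fish and 2.73 ± 0.17 in cavefish, a smaller gap than for the FOS genes.

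**Figure D3:**
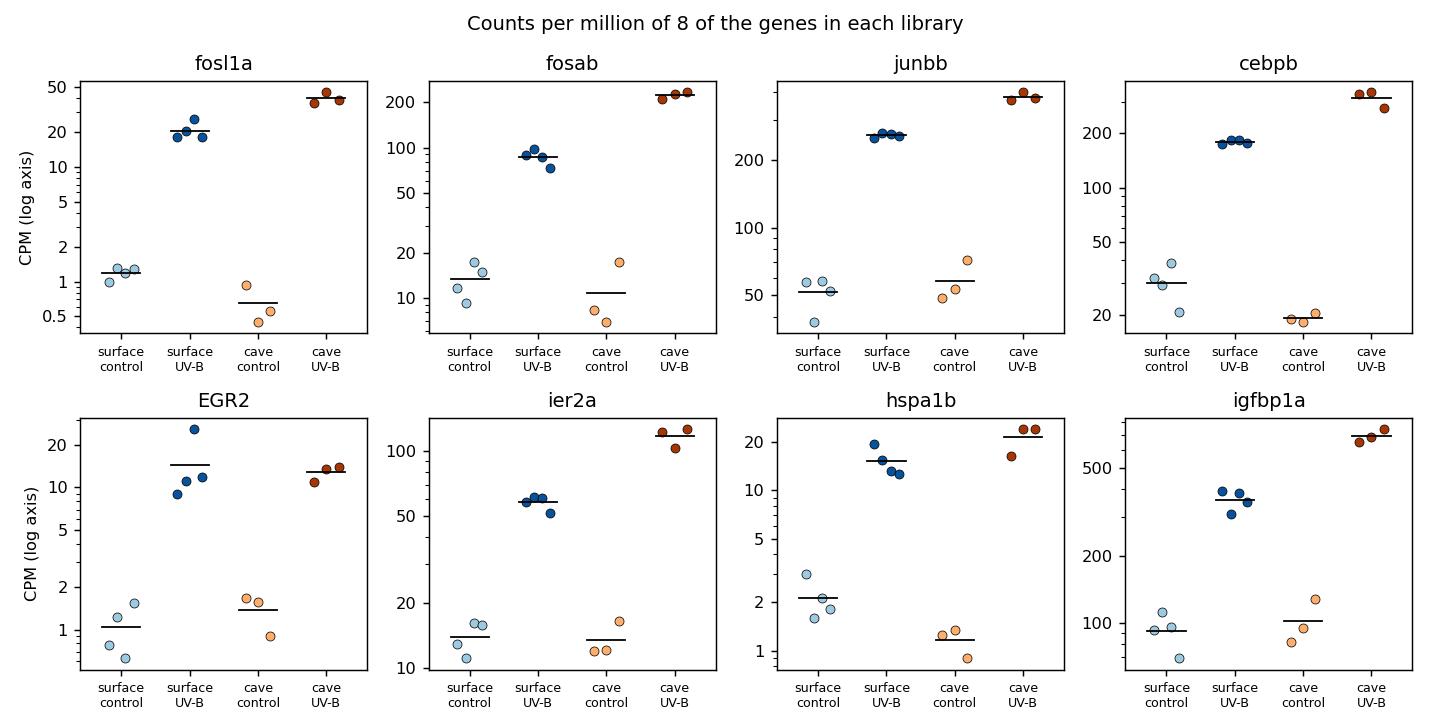
CPM of 8 genes in each library on log axes, with points for libraries and lines for group means. For fosl1a, fosab, junbb, cebpb, ier2a and igfbp1a every cave UV-B library lies above every surface UV-B library, while for EGR2 and hspa1b these groups overlap.

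On a list of 20 AP-1 and related bZIP factors, 10 had a named identifier, and all 10 were called higher in both populations. Their median response was 1.01 in surface fish and 1.96 in cavefish, and the cave response was the larger for 10 of 10. Other lists of named genes leaned the same way to unlike degrees. Cave minus surface response was above 0 for 17 of 19 feedback inhibitors, 15 of 18 epithelial and wound genes and 8 of 13 p53 and UV damage genes. On those lists a value above 0 could also mean a smaller fall in cavefish than in surface fish. The AP-1 list genes below the threshold of the set included the JUN genes jund, with responses of 1.18 in surface fish and 1.85 in cavefish, and junba, with 1.23 and 2.38. crema, which encodes a cAMP-responsive bZIP factor, had 0.61 and 2.07. Names came from a shortened table of the study that was ordered by significance, so named genes are enriched for changed ones. Of all named genes tested, 37.6% were called higher and 54.4% lower in surface fish, and 31.9% higher and 41.9% lower in cavefish. Counts on the lists are therefore counts of these named genes and not shares of a pathway.

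**Figure D4:**
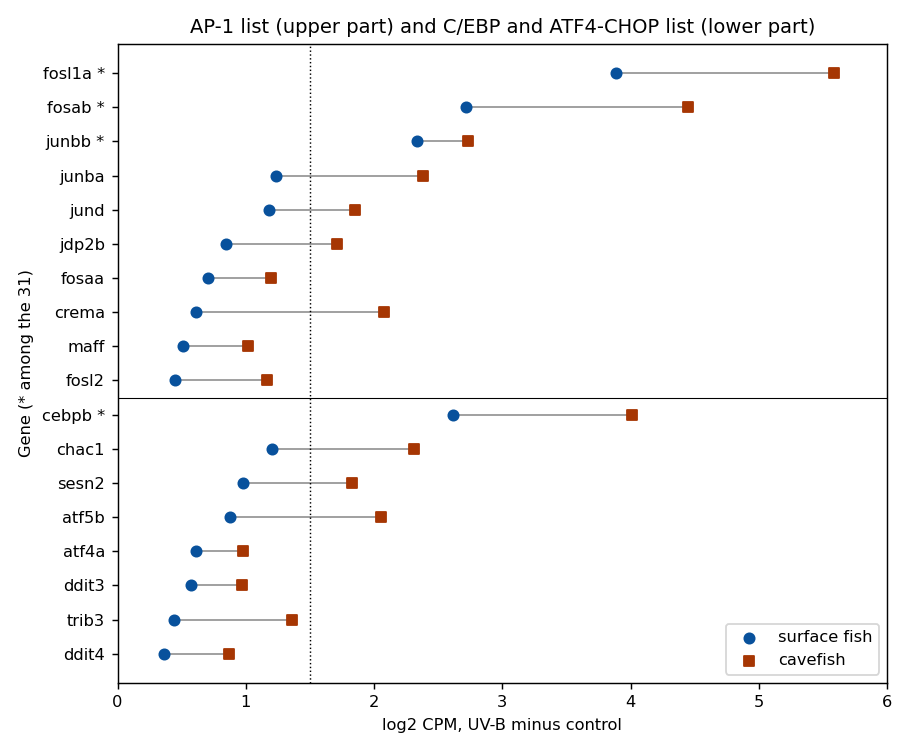
Responses to UV-B (log2 CPM, UV-B minus control) of the named genes on the AP-1 list and on the C/EBP and ATF4-CHOP list, with a circle for surface fish, a square for cavefish and a line joining them. The square lies to the right of the circle for all 18 genes, and the dotted line marks the threshold of 1.5, which only the starred genes passed in both populations.

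cebpb encodes C/EBPβ, a bZIP factor of stress, acute-phase and inflammatory transcription. Surface controls held 31.7, 29.2, 38.5 and 20.6 CPM, and surface UV-B libraries 175, 184, 185 and 176 CPM. Cave controls held 18.96, 18.3 and 20.5 CPM, and cave UV-B libraries 328, 337 and 277 CPM. All cave controls were below all surface controls and all cave UV-B libraries above all surface UV-B libraries. The margin between controls was narrow, as surface control replicate 4 and cave control replicate 4 were nearly level. The response was 2.61 ± 0.19 in surface fish and 4.01 ± 0.10 in cavefish.

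On the list of 14 C/EBP and ATF4-CHOP stress factors, 8 had a named identifier and all 8 were called higher in both populations. This branch is known for answering amino acid shortage and unfolded proteins. Only cebpb reached the threshold of the set in both. chac1, which encodes a glutathione-degrading enzyme induced by ATF4, had responses of 1.21 in surface fish and 2.31 in cavefish. atf5b had 0.88 and 2.06, and ddit3, which encodes CHOP, had 0.57 and 0.97. The list median was 0.75 in surface fish and 1.59 in cavefish.

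EGR2 encodes a zinc finger factor of the EGR family. It held 0.775, 1.22, 0.629 and 1.53 CPM in surface controls and 8.96, 11.1, 25.7 and 11.9 CPM after UV-B. In cavefish it held 1.67, 1.57 and 0.896 CPM in controls and 10.9, 13.5 and 13.99 CPM after UV-B. Surface UV-B replicate 3 lay far above the other surface UV-B libraries, and the UV-B groups of the populations overlapped. The response was 3.49 ± 0.41 in surface fish and 3.07 ± 0.27 in cavefish, which made EGR2 the named gene with the lowest cave response relative to the surface response.

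ier2a and ier5 belong to a family of immediate-early nuclear proteins. ier2a held 12.9, 11.1, 16.1 and 15.7 CPM in surface controls and 58.4, 61.3, 60.8 and 51.9 CPM after UV-B. In cavefish it held 11.98, 12.1 and 16.5 CPM in controls and 123, 103 and 126 CPM after UV-B. Controls overlapped between populations, and cave UV-B libraries stood above all surface UV-B libraries. Its response was 2.06 ± 0.14 in surface fish and 3.11 ± 0.17 in cavefish. ier5 had a response of 1.66 ± 0.09 in surface fish and 2.04 ± 0.12 in cavefish, with mean levels of 51.02 ± 6.11, 161 ± 5.64, 48.3 ± 4.32 and 199.8 ± 22.7 CPM (SD) in the controls and UV-B libraries of surface fish and those of cavefish, in that order.

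The list named for zinc finger and nuclear receptor immediate-early genes was mixed. It also held genes of neither class, among them ier2a, ier5, btg2 and RHOB, all called higher in both populations. Of its 13 named genes, 6 were called higher and 4 lower in surface fish, and 8 higher and 3 lower in cavefish. egr1 had responses of 0.54 in surface fish and 0.77 in cavefish, well under those of EGR2. btg2, an antiproliferative gene, had 1.16 and 1.41. nr4a3, which encodes an orphan nuclear receptor, had -1.21 and -1.59.

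hspa1b encodes an inducible HSP70 chaperone, which holds and refolds unfolded proteins. It held 2.99, 1.597, 2.14 and 1.82 CPM in surface controls and 19.4, 15.5, 13.2 and 12.6 CPM after UV-B. In cavefish it held 1.25, 1.35 and 0.896 CPM in controls and 16.3, 24.1 and 24.03 CPM after UV-B. All cave controls were below all surface controls, while the UV-B groups overlapped. The response was 2.73 ± 0.23 in surface fish and 3.98 ± 0.24 in cavefish. HSP70 genes occur as near-identical copies, and how reads shared by copies were counted was not stated, so this value is uncertain.

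Of 11 named heat shock and co-chaperone genes, 9 were called higher and 2 lower in surface fish, and 8 higher and 2 lower in cavefish. The small heat shock genes hspb9 and hspb11 had cave responses of 3.05 and 2.93 and surface responses of 1.05 and 1.36, which kept them out of the set. The genes called lower in both populations were serpinh1a and serpinh1b, which encode the collagen chaperone HSP47.

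The lipid droplet genes cidec and plin2 were both in the set. cidec encodes a protein that fuses lipid droplets. Surface controls held 0.775, 1.22, 2.08 and 1.12 CPM and surface UV-B libraries 11.4, 9.68, 18.9 and 11.3 CPM. Cave controls held 0.625, 1.23 and 0.896 CPM and cave UV-B libraries 26.4, 20.1 and 23.3 CPM. All cave UV-B libraries lay above all surface UV-B libraries after TMM scaling, though not by library totals alone. Surface UV-B replicate 3 stood above the rest of its group. The response was 3.14 ± 0.33 in surface fish and 4.42 ± 0.26 in cavefish, on control counts of 6 to 33 reads.

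plin2 encodes the droplet coat protein perilipin 2. It held 36.004, 27.6, 31.8 and 39.2 CPM in surface controls and 176, 161, 175 and 144 CPM after UV-B. In cavefish it held 23.9, 25.5 and 44.003 CPM in controls and 155, 169.6 and 157 CPM after UV-B. Populations overlapped before and after UV-B, and the responses of 2.28 ± 0.13 and 2.41 ± 0.28 differed by less than their errors.

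igfbp1a encodes a secreted protein that binds insulin-like growth factors and is known to rise under stress and starvation. Surface controls held 92.7, 111, 95.8 and 69.2 CPM and surface UV-B libraries 393, 308, 385 and 349.7 CPM. Cave controls held 81.8, 94.9 and 128 CPM and cave UV-B libraries 652, 686 and 745 CPM. Controls overlapped, and every cave UV-B library was above every surface UV-B library. The response was 1.97 ± 0.16 in surface fish and 2.79 ± 0.20 in cavefish. slc25a38a encodes the mitochondrial glycine carrier used in heme synthesis. Its levels were 7.25 ± 1.62, 31.5 ± 4.12, 14.8 ± 3.45 and 77.5 ± 11.2 CPM (SD) in surface controls, surface fish after UV-B, cave controls and cavefish after UV-B, higher in cavefish both before and after UV-B with no overlap. Its response was 2.11 ± 0.19 in surface fish and 2.39 ± 0.22 in cavefish, a difference within 1 standard error.

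Further members encode enzymes of sugar chains, described together here after their values were seen and not as a tested group. HS3ST1 encodes a sulfotransferase that modifies heparan sulfate. It held 5.54, 5.26, 5.98 and 4.94 CPM in surface controls and 40.7, 34.4, 52.9 and 33.6 CPM after UV-B. In cavefish it held 4.06, 3.48 and 6.16 CPM in controls and 42.3, 37.4 and 39.6 CPM after UV-B. The populations overlapped in both conditions, and the response was 2.83 ± 0.16 in surface fish and 3.11 ± 0.24 in cavefish.

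has1 encodes a hyaluronan synthase, an enzyme of the extracellular matrix. It held 3.88, 2.35, 2.33 and 4.001 CPM in surface controls and 16.5, 13.8, 23.5 and 15.5 CPM after UV-B. In cavefish it held 3.23, 1.79 and 3.02 CPM in controls and 16.4, 12.4 and 9.29 CPM after UV-B. The response was 2.41 ± 0.26 in surface fish and 2.16 ± 0.34 in cavefish, so has1 was among the genes without a larger cave response. The related gene has2 was called lower in both populations, with responses of -1.79 and -1.42.

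gcnt4b encodes a glycosyltransferase that branches O-linked sugar chains, with responses of 2.21 ± 0.30 in surface fish and 2.18 ± 0.39 in cavefish. Its mean level was 3.03 ± 1.26 CPM in surface controls and 6.93 ± 3.43 CPM in cave controls, and 14.2 ± 2.96 against 30.1 ± 4.07 CPM after UV-B (SD). fut9b encodes a fucosyltransferase, with responses of 1.94 ± 0.19 and 2.04 ± 0.23. gcnt3, of the same enzyme family as gcnt4b, missed the set with a cave response of 1.26.

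Among the membrane and secreted proteins, tm4sf4 encodes a tetraspan membrane protein. It held 180.02, 220.4, 146 and 125 CPM in surface controls and 622, 354, 584 and 538 CPM after UV-B. In cavefish it held 58.9, 57.9 and 84.4 CPM in controls and 396, 348 and 410.2 CPM after UV-B. Cave controls were below all surface controls, and surface UV-B replicate 2 lay far below the rest of its group and within the cave UV-B range. The response was 1.64 ± 0.26 in surface fish and 2.54 ± 0.19 in cavefish.

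golt1a, which encodes a protein of vesicle transport at the Golgi, showed a similar pattern. It held 12.96, 12.6, 9.69 and 8.71 CPM in surface controls and 40.5, 33.8, 45.8 and 33.2 CPM after UV-B. In cavefish it held 3.54, 4.26 and 7.84 CPM in controls and 33.7, 28.4 and 36.8 CPM after UV-B. Its response was 1.79 ± 0.18 in surface fish and 2.69 ± 0.35 in cavefish. Both genes started lower in cavefish, and the gap between populations was smaller after UV-B, at -0.21 ± 0.16 for golt1a and -0.42 ± 0.20 for tm4sf4 (cave minus surface, log2 CPM) against -1.11 ± 0.36 and -1.31 ± 0.25 in controls. That narrowing was not called for either gene in the edgeR interaction test (adjusted p = 0.126 for golt1a and 0.0686 for tm4sf4).

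cx28.9 encodes a connexin, a subunit of gap junctions. It held 22.2, 24.7, 16.9 and 11.9 CPM in surface controls and 55.5, 36.7, 65.9 and 56.6 CPM after UV-B. In cavefish it held 15.6, 11.7 and 15.5 CPM in controls and 93.8, 83.6 and 82.9 CPM after UV-B. Cave UV-B libraries lay above all surface UV-B libraries after TMM scaling, though not by library totals alone. The response was 1.51 ± 0.29 in surface fish and 2.60 ± 0.15 in cavefish.

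INHBC encodes an inhibin beta subunit of the TGF-β family, with responses of 1.76 ± 0.33 in surface fish and 2.37 ± 0.32 in cavefish. Its mean level was 6.99 ± 1.402 CPM in surface UV-B and 17.3 ± 1.92 CPM in cave UV-B libraries (SD). si:ch73-335l21.4 carries a clone-based name without a described role. It held 9.64, 4.79, 6.17 and 5.06 CPM in surface controls and 51.1, 52.3, 48.1 and 47.04 CPM after UV-B. In cavefish it held 6.04, 6.62 and 7.61 CPM in controls and 77.1, 72.4 and 76.9 CPM after UV-B, and the responses were 2.97 ± 0.23 and 3.45 ± 0.10.

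The 10 genes without a name had surface responses of 1.50 to 2.66 and cave responses of 1.84 to 3.99. The largest cave response among them was that of ENSAMXG00000018794. It held 3.77, 4.32, 4.78 and 3.88 CPM in surface controls and 28.5, 24.2, 20.3 and 16.5 CPM after UV-B. In cavefish it held 3.44, 2.02 and 2.46 CPM in controls and 40.8, 42.6 and 48.5 CPM after UV-B, without overlap between populations in either condition. Its responses were 2.34 ± 0.18 and 3.99 ± 0.22.

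Cavefish had the larger response for 28 of the 31 genes. Cave response minus surface response had a median of 0.62 and ran from -0.43 to 1.73, where the median over the 12055 genes was 0.02. TMM scaling holds that last median near 0 as well. EGR2, has1 and gcnt4b had values below 0, each within 1 standard error of 0. The largest differences among named genes were 1.73 ± 0.45 for fosab, 1.70 ± 0.30 for fosl1a, 1.40 ± 0.21 for cebpb, 1.28 ± 0.42 for cidec and 1.25 ± 0.33 for hspa1b. In the edgeR test of the population by treatment interaction, 8 of the 31 were called, all with the larger change in cavefish, where 1.41% of all genes tested were called in that direction. The called genes were fosl1a, fosab, cebpb, ier2a, igfbp1a, cx28.9, ENSAMXG00000018794 and ENSAMXG00000035501. Both responses had entered the choice of the genes, and the threshold was the harder one in surface fish, so these counts are a description as well. A difference above 0 was not particular to the set. Among lists with no gene in it, 17 of 19 named feedback inhibitors (median 1.01) and 9 of 12 cytokine genes (1.08) had one. So did 8 of 13 p53 and UV damage genes (0.10), 11 of 18 tissue markers (0.22) and 5 of 7 myeloid markers (0.55). In the set such a difference meant a larger rise in cavefish, as every member rose in both populations. On these lists it could also mean a smaller fall or no fall in cavefish. Of the feedback inhibitors, 8 were called higher and 8 lower in surface fish, against 13 higher and 0 lower in cavefish.

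The calls were of unequal stability. fosab, cebpb and ier2a were called under all 18 alternative fits or omissions of a library, and fosl1a under 17, the exception being limma-voom (adjusted p = 0.0775). igfbp1a and cx28.9 were called under 7 of the 18 each, with the difference above 0 throughout.

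**Figure D5:**
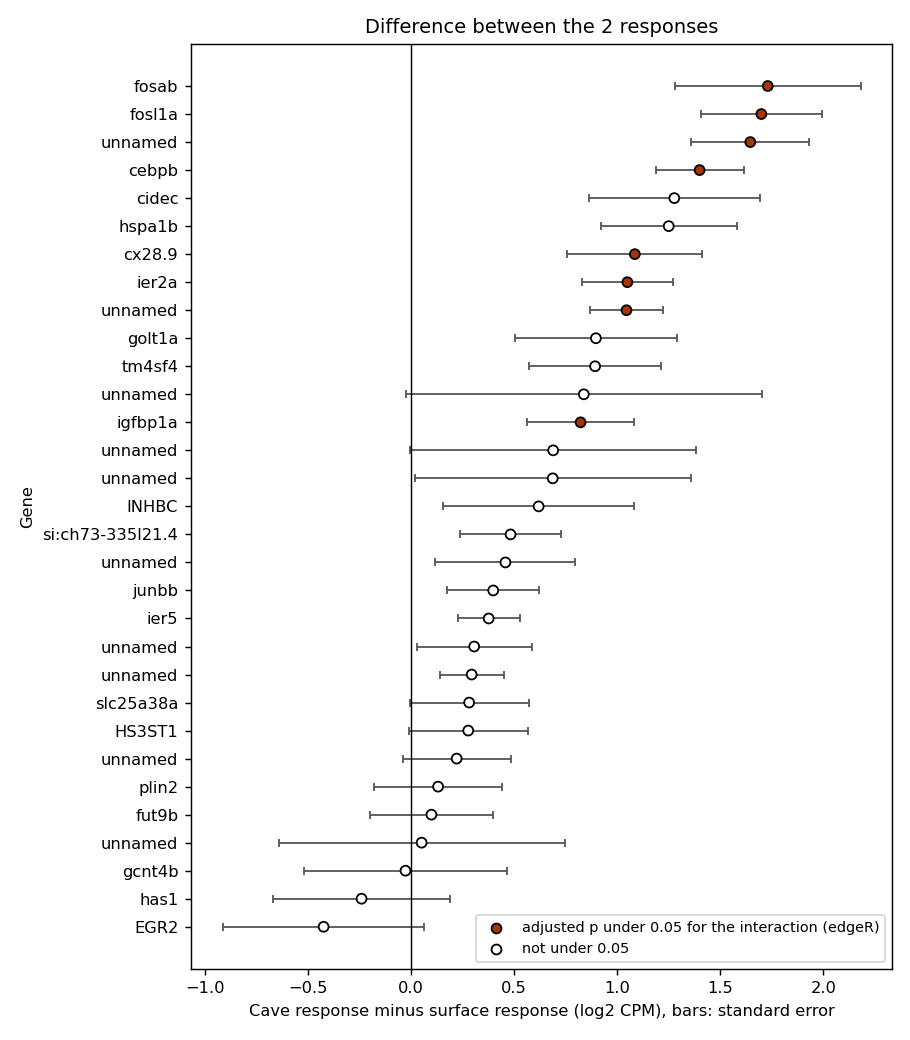
Cave response minus surface response (log2 CPM) of the 31 genes, with bars for the standard error and filled points for the 8 genes called for the interaction by edgeR. Points run from -0.43 for EGR2 to 1.73 for fosab, and 28 lie above 0.

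Fewer of these genes were called between the populations before UV-B than after it, as was so over all genes tested. Cave minus surface control levels had a median of -0.16 and ran from -1.31 to 1.31, with 12 genes above and 19 below 0. The choice of genes limits this difference to under 2. Cave controls lay entirely above surface controls for 3 genes, slc25a38a and a pair without names, and entirely below for 6, fosl1a, hspa1b, cebpb, golt1a, tm4sf4 and ENSAMXG00000018794, where 16.4% and 18.5% of all genes tested lay entirely above and below. edgeR called 4 of the 31 higher in cave controls, beside 12.7% of all genes, and 3 lower, beside 15.0%. The higher ones were slc25a38a (1.01 ± 0.24), gcnt4b (1.11 ± 0.45) and 2 genes without a name, and the lower ones were tm4sf4 (-1.31 ± 0.25), golt1a (-1.11 ± 0.36) and cebpb (-0.60 ± 0.19), with values as cave minus surface log2 CPM ± SE.

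After UV-B the levels of most of the genes were higher in cavefish. Cave minus surface UV-B levels had a median of 0.72 and ran from -0.45 to 1.76, with 23 genes above 0. In CPM, all cave UV-B libraries lay above all surface UV-B libraries for 20 genes and below for 0, where 22.6% and 24.5% of all genes tested did so. The TMM factors were 0.764 to 0.879 in cave UV-B and 0.992 to 1.06 in surface UV-B libraries, so the scaling raised cave values relative to surface values. By library totals alone some of the 20 overlapped, among them ier5, cidec and cx28.9, and the count was not repeated on that scale. edgeR called 22 of the 31 higher in cave UV-B libraries, beside 21.7% of all genes, and 1, tm4sf4, lower, beside 22.6%. The groups behind these counts are those that chose the genes.

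A few genes missed the set narrowly. Just inside the threshold were ENSAMXG00000004992, with responses of 1.50 in surface fish and 2.19 in cavefish, cx28.9, with 1.51 and 2.60, and ENSAMXG00000035501, with 1.55 and 2.60. Just outside were cyp3a65, a cytochrome P450 gene, with 1.47 and 2.09, ENSAMXG00000009880, with 1.45 and 2.57, and cpo, with 1.44 and 2.01.

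The p53 target and UV damage list had no gene in the set. Of its 13 named genes, 9 were called higher and 2 lower in surface fish, and 7 higher and 2 lower in cavefish, with median responses of 0.48 and 0.46. Its nearest gene was cdkn1a, which encodes the cell cycle inhibitor p21, with responses of 1.70 in surface fish and 1.38 in cavefish. The set also held none of 19 named feedback inhibitors of MAPK, cytokine and NF-κB signalling. Of these, 8 were called higher and 8 lower in surface fish, against 13 higher and 0 lower of 18 tested in cavefish. dusp1, a phosphatase that shuts off stress kinases, had responses of 0.84 and 1.68. None of 12 named cytokine and inflammatory genes was in the set, with 3 called higher and 6 lower of 11 tested in surface fish and 7 higher and 2 lower in cavefish. Of 18 epithelial and wound genes, has1 belonged to the set, and 7 were called higher and 9 lower in surface fish, against 8 higher and 6 lower in cavefish.

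The 31 genes together took 0.0813 ± 0.0084% of counts in surface controls (SD, n = 4), 0.292 ± 0.0226% in surface UV-B libraries (n = 4), 0.0635 ± 0.00907% in cave controls (n = 3) and 0.335 ± 0.0168% in cave UV-B libraries (n = 3). Ranges did not overlap between control and UV-B libraries of either population, which the choice of the genes on these same libraries had largely fixed. Cave control replicate 4 was the highest of its group for 20 of the 31 genes, with a median deviation of 0.30 (log2 CPM) from the group mean. Surface UV-B replicate 2 was the lowest of its group for 15, with a median deviation of -0.21. The biological coefficient of variation had a median of 0.154 over the 31 genes and ran from 0.102 to 0.338, where the median was 0.134 over 12481 genes averaging 50 counts or more. The lowest count of any of the 31 genes in a library was 4, and no count was 0.

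Tissue markers were counted as well, on a list of 18 (muscle, heart, eye, neurons, gut, liver or yolk, and skin). Their names came from the study's shortened table ordered by significance, so that many were called was largely fixed by that source. Of all named genes tested, 37.6% were called higher and 54.4% lower in surface fish, and 31.9% and 41.9% in cavefish. Of the 18 markers, 15 were called higher and 3 lower in surface fish, and 9 higher and 1 lower in cavefish. Their summed level was 20418 to 22909 CPM in surface controls and 27045 to 30566 CPM after UV-B, and 21725 to 33120 CPM in cave controls and 31504 to 41824 CPM after UV-B. That sum rested mainly on the muscle genes acta1b and mylz3. The mean of acta1b went from 10884 to 13765 CPM in surface fish and from 17674 to 24304 CPM in cavefish. That of mylz3 went from 3917 to 4994 CPM and from 6300 to 7530 CPM. Both were called higher in surface fish, and neither was called in cavefish. A further muscle marker, myog, was called lower in surface fish (response -0.60) and not called in cavefish (-0.16). Also called lower were the neuron marker elavl4 in both populations (-0.56 and -0.95) and the skin marker krt99 in surface fish (-0.57). The other neuron and skin markers, gng3, stmn1b and krt18a.1, were called higher in surface fish. The eye markers rho and gnat2 were near 0 in cave controls, at means of 2.08 and 0.89 CPM, against 1202 and 71.1 CPM in surface controls. Of 7 named myeloid markers, 1 was called higher and 4 lower of 5 tested in surface fish, and 1 higher and 1 lower in cavefish. The summed level of the list rested mainly on cd36, a scavenger receptor that other tissues also express and the gene called higher, whose mean went from 94.04 to 166 CPM in surface fish and from 52.97 to 156 CPM in cavefish, while irf5, ptafr, lyn and csf3r were called lower in surface fish. The sum was 101 to 162 CPM in surface controls, 128 to 209 CPM after UV-B in surface fish, 60.0 to 106 CPM in cave controls and 147 to 193 CPM after UV-B in cavefish. The part of tissue or cell makeup in the responses of the 31 genes was not tested.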

How the data were processed

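The authors deposited raw counts of reads per gene for 14 libraries, from reads that, per the study's methods, were mapped and counted with STAR (version not given in the sources used here) on version 2.0 of the A. mexicanus genome with the Ensembl release 108 annotation. The strand setting and the handling of reads shared by several genes were not stated, so overlapping, antisense and near-identical genes are uncertain. Where looked at, the deposited counts appeared lower than those of the study's supplementary count table for the same libraries. That difference was not measured over all genes. Which reads each table holds was not settled, so read numbers, totals and counting limits describe the deposited table and can understate the sequencing. Columns not mapped to a sample numbered 0, and every row named a gene. Groups and replicate numbers came from the sample labels.

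Log2 CPM came from edgeR 4.0.16 (R 4.3.3) normalised by TMM over the 14 libraries, and a prior count of 2. Comparisons used the edgeR quasi-likelihood test with filterByExpr and Benjamini-Hochberg adjustment over all genes tested (threshold 0.05), fitted on the libraries compared. The interaction used all 14. The tests were tried on simulated data with known changes. DESeq2 1.42.0, limma-voom (limma 3.58.1), RLE scaling, library totals, other filters, a fit of all libraries, a replicate block and omission of each library were alternatives. Standard errors came from the spread of log2 CPM between replicates.

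Library totals of 7.42 to 15.26 M set the precision, with 3 counts worth 0.177 to 0.460 CPM, and such limits cover counting error only. Replicates of a group differed by a chi-square of 5.01 to 18.5 per degree of freedom, more than counting error alone gives. No library was thus a mere resampling of another, but this check cannot tell separate pools from repeat libraries of the same pool. Gene names came from identifier and name columns of the study's shortened supplementary gene tables or its methods (2078 identifiers), and no other column of them was used. Named in the text were members on the gene lists, the 10 other named members with the largest mean response, those with the 5 largest and 5 smallest differences in response, the 3 genes on each side of the threshold, the highest members after UV-B and at most 2 unnamed identifiers beyond these. All 21 named members fell under this rule, and other genes singled out were added after their values were seen. The members and lists were chosen with earlier results of these data known.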

Additional observations from a re-analysis of the deposited data

Results flagged for a closer look

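For 6 named genes the responses of the populations differed by the edgeR interaction test, each with the larger change in cavefish. The fitted differences (cave minus surface log2 fold change) and adjusted p-values were 1.81 and 0.00806 for fosl1a, 1.68 and 0.00344 for fosab, 1.44 and 0.000452 for cebpb, 1.07 and 0.00427 for ier2a, 0.81 and 0.0347 for igfbp1a, and 1.08 and 0.0383 for cx28.9. In CPM after TMM scaling, all cave UV-B libraries were above all surface UV-B libraries for each of these genes. For cx28.9 that rested on the scaling. Cave UV-B replicate 4 held 669 reads of it in 10.56 M, and surface UV-B replicate 3 held 574 in 8.56 M, a higher share. Both responses had entered the choice of the genes, so the tests are no independent support. By Dixon's 95% criterion no library stood apart from its group for any named gene in the surface groups of 4, and the cave groups of 3 are too small for that check. In CPM, surface UV-B replicate 3 fell just short of that criterion for EGR2 and cidec. Members without a name did exceed it in places. Surface UV-B replicate 2 held 24.9 CPM of an unnamed gene, against 32.2 to 33.0 CPM in the rest of its group. Surface control replicate 2 held 30.8 CPM of another, against 35.4 to 36.1 CPM.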

How the results depend on the processing

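Raising the threshold from 1.5 to 2 left 19 genes in place of 31, and other settings gave 26 to 36, of which 26 to 31 were shared with the 31. Omitting a library gave 28 genes (without surface control replicate 4) to 38 (without surface control replicate 2). Every response of a named gene kept its direction and its call under RLE scaling, library totals, DESeq2, limma-voom and each omission. Requiring 10 counts in every library removed genes from the test and left 28 of the set called in surface fish and 27 in cavefish. The interaction was called for 6 to 10 genes in place of 8, the control difference for 5 to 10 in place of 7 and the difference after UV-B for 20 to 24 in place of 23. In a fit with a replicate block, 31, 31 and 7 genes were called for the surface response, cave response and interaction. In cavefish only replicate numbers 2 and 4 occurred in both conditions, so the cave response in that fit rested on those libraries alone. Deviations of libraries sharing a number correlated at -0.05 to 0.23. Libraries of unlike numbers were not set beside them, so whether the numbers pair the samples was not settled.

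Some differences near 0, none of them called, changed sign, and the cause was not tested. With library totals the difference in response became -0.038 for plin2 (0.08 with TMM) and -0.055 for fut9b (0.07), and the control difference became -0.11 for si:ch73-335l21.4 (0.07), -0.040 for junbb (0.14) and -0.071 for igfbp1a (0.12). Over omissions of a library, the difference in response ran from -0.076 to 0.42 for plin2, -0.10 to 0.33 for fut9b and -0.42 to 0.36 for gcnt4b. The control difference ran from -0.037 to 0.31 for si:ch73-335l21.4, -0.20 to 0.033 for ier2a, -0.43 to 0.051 for plin2, -0.37 to 0.0094 for has1, -0.0028 to 0.28 for junbb and -0.045 to 0.28 for igfbp1a. The planned comparison of promoter motifs was not run, since no promoter sequences were used here. Groups of 3 and 4 pools limit the precision of differences between the responses, and control counts under 10 in 4 genes limit their ratios.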
